A study of Homo sapiens with 18 samples.

Results

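The nuclear-encoded subunits of the respiratory chain were followed in HK-2, an established cell line derived from the proximal tubule of a human kidney, over exposure to CsA or to its vehicle. Members were the genes whose symbols begin with the subunit stems of complexes I to V (NDUFA, NDUFB, NDUFC, NDUFS, NDUFV, SDHA to SDHD, UQCR, COX4I, COX5, COX6, COX7, COX8, ATP5F1, ATP5M and ATP5P), each read by its brightest probe set with exactly 1 gene symbol. Assembly factors named NDUFAF were left out. The stems found 81 symbols on 154 probe sets, and 71 of them reached a group mean of 4 on the log2 scale in at least 1 group, of 10717 genes on the arrays that did. Complex I had 33 such members, complex II 3, complex III 6, complex IV 12 and complex V 17.

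The study measured RNA on 18 Affymetrix arrays, 3 biological replicates in each of 6 groups: CsA or control (vehicle) for 12, 24 or 48 h. CsA is the usual abbreviation of cyclosporin A; the labels do not spell it out and give no dose or vehicle name. All groups shared 1 cell line and 1 medium with EGF, hydrocortisone, insulin and transferrin, and cells were treated near confluence. Values are GCRMA values, taken as log2. No label says whether the replicates came from separate cultures handled on different days, so p-values measure the spread between these arrays.

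Complex I passes electrons from NADH, and complex II from succinate, to ubiquinone. Complex III carries them on to cytochrome c and complex IV to oxygen, and complex V, the ATP synthase, uses the resulting proton gradient to make ATP. Proximal tubule cells in the kidney reabsorb solutes at a high energy cost and are rich in mitochondria. CsA binds cyclophilins, among them the mitochondrial cyclophilin D, a regulator of the permeability transition pore. In bulk RNA, fewer cells and less RNA per cell cannot be told apart, and the arrays measure transcripts, not respiration or protein.

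The 10 symbols below the level were COX4I2, COX6B2, COX7A1, COX7B2, COX8C, ATP5MF, the pseudogene COX6A1P1 and the RNA genes NDUFB2-AS1, NDUFV1-DT and NDUFV2-AS1. COX4I2, a tissue-restricted form of COX4I1, was the closest below it, with a highest group mean of 3.49. COX6A2, the heart and muscle form of COX6A, was the closest above it at 4.83, followed by the pseudogene ATP5MC2P1 at 5.55. Both lay within 0.10 of 0 in CsA against control at every time, and the counts of members called were the same without them. NDUFA4, once counted with complex I and now with complex IV, is listed under its current name COXFA4 and so fell outside the stems.

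Array medians lay between 2.858 and 2.924, and 38.24% to 39.13% of probe sets reached 4. Replicate 3 stood apart from replicates 1 and 2 across the series. For the members its distance was smaller: its median absolute difference from the mean of the other replicates was 0.13, against 0.24 for all genes. The share of members with 1 sign of that difference in all 6 groups was 40.8%, and of all genes 41.4%. Of these 29 members, 10 were higher and 19 lower in replicate 3. The median SD within groups was 0.13 for members and 0.26 for all genes. Of 14 proximal tubule markers, 12 lay below the level, among them AQP1, LRP2, CUBN and SLC34A1. SLC3A1 and PAX8 reached it, as did 6 of 6 epithelial markers and, of podocyte markers, PODXL and SYNPO. The endothelial, leukocyte and distal nephron markers were all below it. For ACTB, the 3-prime control probe set exceeded the 5-prime one, a measure of RNA degradation, by group means between 0.80 and 0.95. In control at 48 h the ACTB difference was 1.21, 0.71 and 0.78 in replicates 1, 2 and 3. For GAPDH the 3-prime probe set did not exceed the 5-prime one, with group means between -0.14 and -0.09.

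Many more members fell than rose between 24 and 48 h, in both treatments. In control arrays 19 of the 71 members fell and 1 rose at an adjusted p under 0.05 (limma over all genes with Benjamini-Hochberg adjustment), while 7.16% of all genes fell and 7.32% rose. The median difference from 24 to 48 h was -0.21 on the log2 scale, and 63 of 71 members were below 0, against 50.4% of all genes. In CsA arrays 17 members fell and 1 rose, with 12.3% of all genes falling and 12.9% rising. Their median was -0.15 and 55 of 71 were below 0, against 50.2% of all genes. Medians over all genes were -0.0034 and -0.0015. The control count rested on few arrays: it was 6 without replicate 1 at 24 h, 6 without replicate 2 at 48 h, 8 without replicate 3 at 24 h, and 13 without replicate 2 at 24 h or replicate 3 at 48 h. Between 12 and 24 h no member was called in either treatment. An unadjusted p under 0.05 was found for 0 members, and for 131 of all 10717 genes in control and 486 in CsA arrays. With the replicate number as a block, still 0 members were called there. In that fit 1 member in control and 5 in CsA arrays had an unadjusted p under 0.05, as did 427 and 1260 of all 10717 genes. No gene of the whole table was called there without the block, and 0% of all genes in control and 0.131% in CsA arrays with it.

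**Figure D1:**
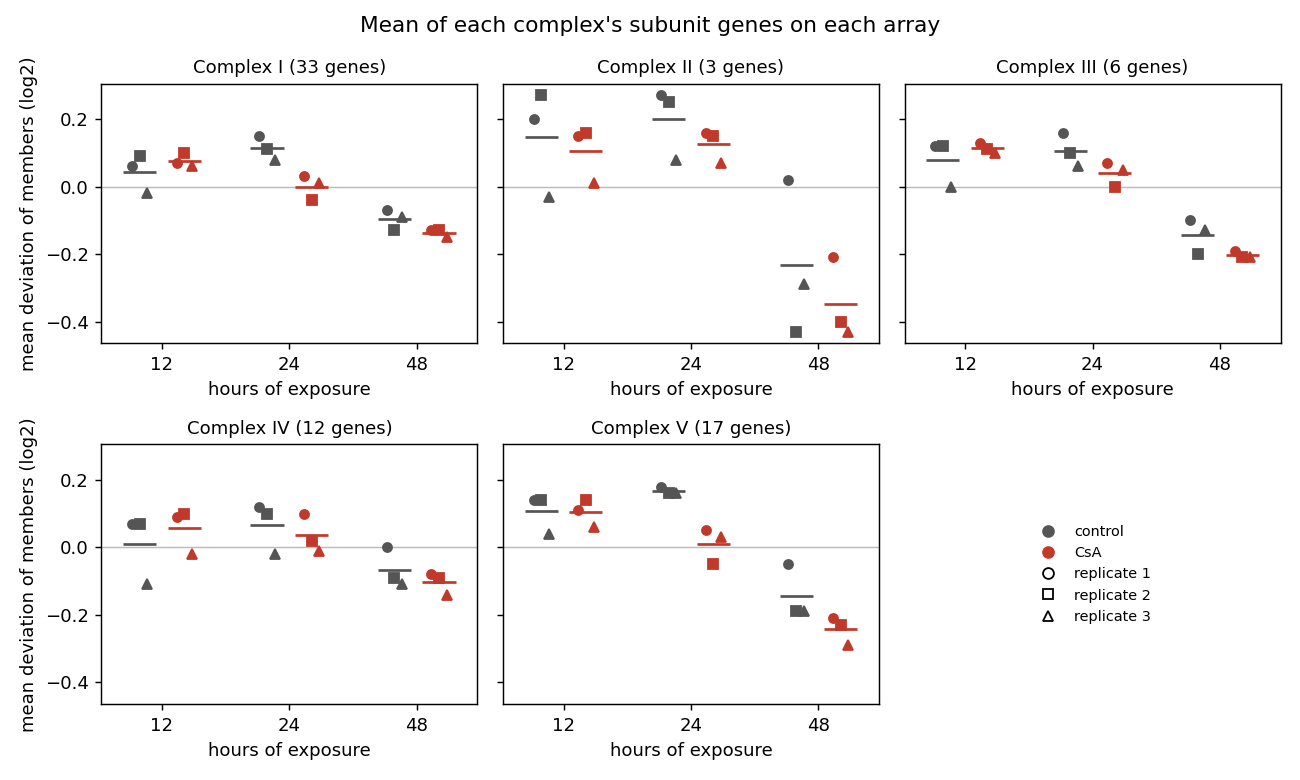
Mean deviation of each complex's members from their own mean over the 18 arrays (log2), by hours of exposure, with control in grey and CsA in red; points are arrays, shapes are replicates and bars are group means. Complex V means were 0.17 ± 0.01 (SD, n = 3) in control at 24 h and -0.14 ± 0.08 at 48 h, and 0.01 ± 0.05 and -0.24 ± 0.04 with CsA.

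Averaged over all 71 members, the control arrays stood at 0.16, 0.12 and 0.08 above the member means at 24 h and at -0.05, -0.16 and -0.13 at 48 h. The CsA arrays stood at 0.06, -0.02 and 0.02 at 24 h and at -0.15, -0.16 and -0.20 at 48 h. In both treatments the 48 h arrays lay wholly below the 24 h arrays. Within replicate numbers, the median change from 24 to 48 h was -0.17, -0.29 and -0.21 in control arrays and -0.18, -0.13 and -0.19 in CsA arrays.

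The median change was below 0 in every complex, while single subunits differed. From 24 to 48 h the control medians were -0.21 for complex I, -0.51 for complex II, -0.24 for complex III, -0.12 for complex IV and -0.28 for complex V. In CsA arrays they were -0.14, -0.41, -0.17, -0.13 and -0.19 in the same order. All 17 complex V members were below 0 in control arrays and 15 in CsA arrays. Complex I had 29 and 22 of 33 members below 0. Differences between complexes were not tested.

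In both treatments 13 members fell and 1, COX7A2L, rose, while 5.31% of all genes were called lower in both and 5.82% higher in both. The 13 were NDUFA2, NDUFB3, NDUFB4, NDUFB6 and NDUFS6 of complex I, SDHA of complex II, UQCR10 of complex III, COX6B1, COX7B and COX8A of complex IV, and ATP5MC1, ATP5MC3 and ATP5MK of complex V. The arrays of 24 and 48 h did not overlap in either treatment, with 48 h lower, for 27 members, against 10.8% of all genes. With the replicate number as a block, 31 members fell and 1 rose in control arrays (16% and 16.6% of all genes), 24 fell and 2 rose in CsA arrays (20.5% and 21.3%), and 22 fell in both. Without replicate 3, 17 fell and 1 rose in control arrays and 13 fell and 1 rose in CsA arrays. Shares over all genes are not given for the blocked count in both treatments or for the counts without replicate 3. Those counts were therefore not set against a background. Called in both treatments in all 18 fits that left out 1 array were SDHA, NDUFB3, NDUFB6 and ATP5MC1. How many of all genes were called in every such fit was not counted.

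**Figure D2:**
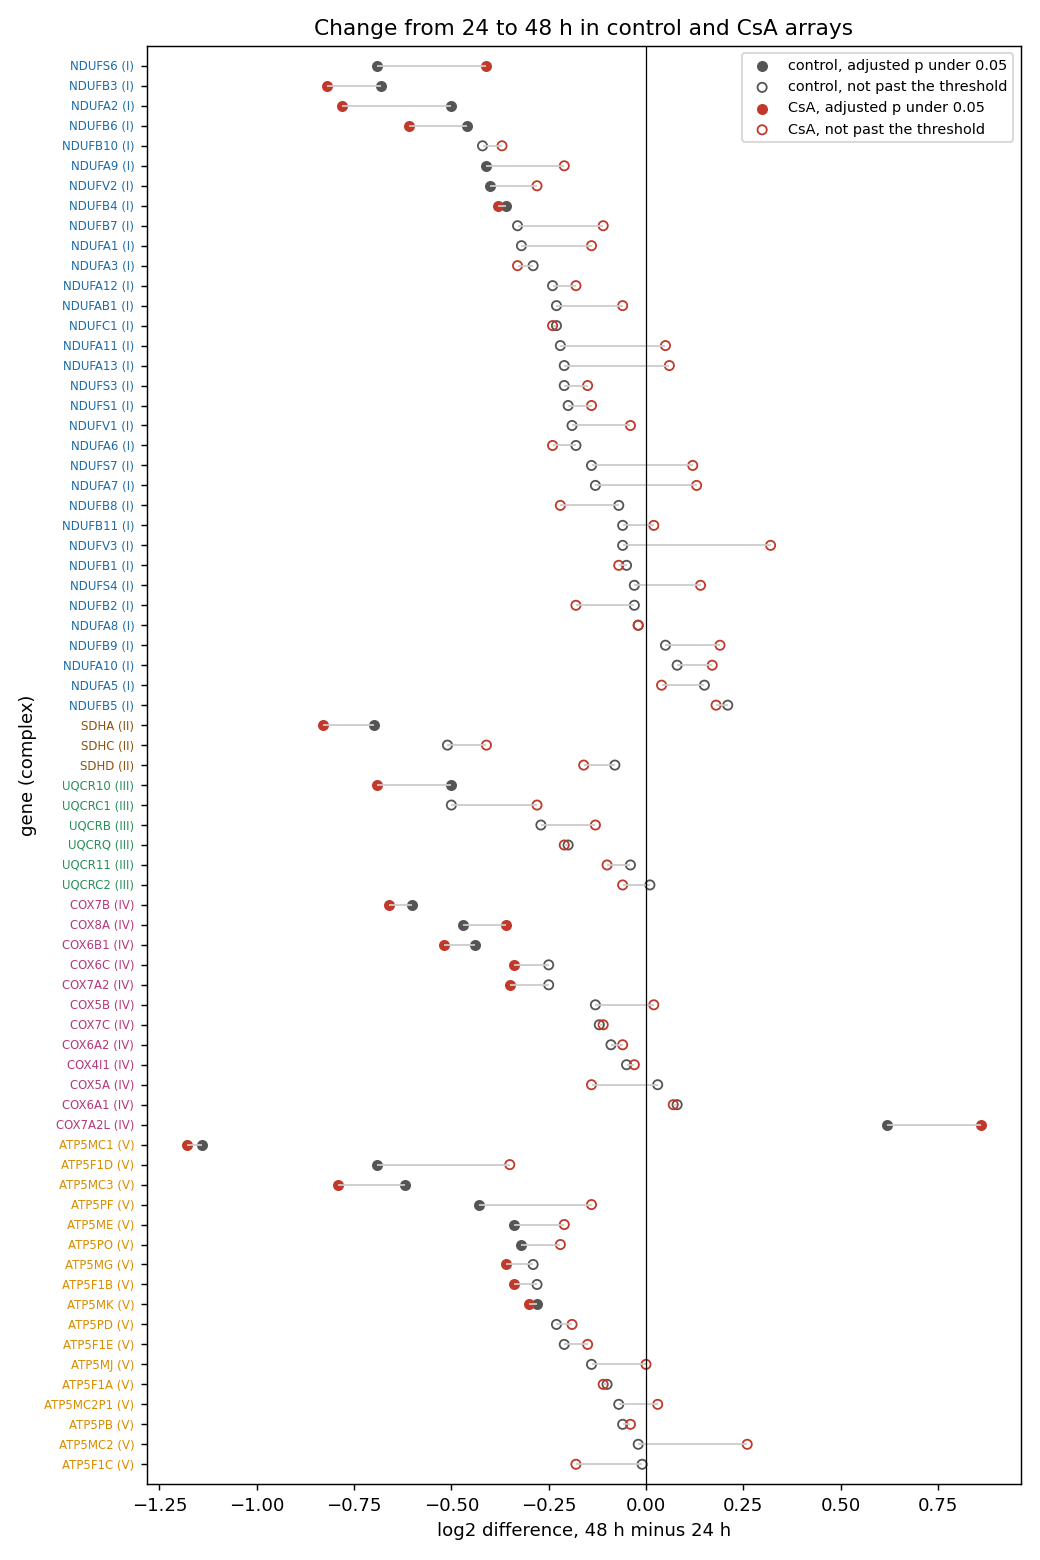
Log2 difference of 48 h minus 24 h for each of the 71 members, ordered by complex, in control (grey) and CsA (red) arrays, each from 3 arrays a time; filled points have an adjusted p under 0.05. Most points lie left of 0, ATP5MC1 farthest at -1.14 and -1.18, and COX7A2L is the filled point on the right at 0.62 and 0.86.

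Complex I is built from a core that binds NADH and iron-sulfur clusters and a larger set of accessory subunits around it. NDUFB3, an accessory subunit of the membrane arm, read 10.81, 11.09 and 11.15 in control at 24 h and 10.64, 10.23 and 10.12 at 48 h. With CsA it went from 10.86, 10.67 and 10.97 to 10.16, 10.09 and 9.82. Every 48 h array lay below every 24 h array of its treatment, and the differences were -0.68 ± 0.14 (SE; limma adjusted p = 0.00826) and -0.82 ± 0.14 (adjusted p = 0.0012). Without replicate 3 the control difference was -0.51 with an adjusted p of 0.0533.

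NDUFA2, an accessory subunit next to the NADH-binding part, read 11.41, 11.23 and 11.13 in control at 24 h and 10.97, 10.75 and 10.54 at 48 h. In CsA arrays it read 11.23, 10.94 and 11.18 at 24 h and 10.51, 10.36 and 10.14 at 48 h. The differences over time were -0.50 ± 0.14 (limma adjusted p = 0.0298) and -0.78 ± 0.14 (0.00123). NDUFB6 fell by 0.46 in control and by 0.61 in CsA arrays, NDUFS6 by 0.69 and 0.41, and NDUFB4 by 0.36 and 0.38, with adjusted p-values from 0.000793 to 0.0362 by limma. NDUFS6 is an accessory subunit needed late in assembly, and NDUFB4 and NDUFB6 lie in the membrane arm. NDUFV2, a core iron-sulfur subunit, fell in control arrays (-0.40) and was -0.28 in CsA arrays (limma adjusted p = 0.0859, and 0.0194 with the block). NDUFA9, an accessory subunit near the ubiquinone site, fell in control arrays (-0.41), a call kept in 7 of the 18 fits without 1 array.

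Of the other core subunits tested, none was called without the block. NDUFS3, of the ubiquinone-binding part, was -0.21 ± 0.09 in control and -0.15 ± 0.09 in CsA arrays, with 48 h arrays wholly below 24 h arrays in both (adjusted p = 0.14 and 0.261 by limma; blocked, 0.0377 and 0.107). NDUFS7, an iron-sulfur subunit, was -0.14 ± 0.14 and 0.12 ± 0.14. NDUFV1, which holds the NADH and FMN site, was -0.19 ± 0.14 in control and -0.04 ± 0.14 in CsA arrays. NDUFS1, the largest iron-sulfur subunit, was -0.20 ± 0.20 and -0.14 ± 0.20. Among its 3 probe sets, 2 went the other way in control (up to 0.31) and 1 in CsA arrays (0.08). Among accessory subunits, NDUFB8, often used as a blot marker of complex I, was -0.07 ± 0.10 and -0.22 ± 0.10. NDUFA5, NDUFA10, NDUFB5 and NDUFB9 were above 0 in both treatments, between 0.04 and 0.21, and none of them was called.

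SDHA is the flavoprotein of complex II that oxidizes succinate, and so belongs to the citric acid cycle as well. It read 10.56, 10.45 and 10.48 in control at 24 h and 9.83, 9.62 and 9.93 at 48 h. With CsA it read 10.30, 10.24 and 10.30 at 24 h and 9.43, 9.34 and 9.57 at 48 h. The 24 and 48 h arrays did not overlap, and the difference was -0.70 ± 0.11 in control (1.62-fold lower, limma adjusted p = 0.00131) and -0.83 ± 0.11 with CsA (1.78-fold lower, 0.000199). Its probe set is one that can cross-hybridize, and SDHA has pseudogenes, so reads of those cannot be told apart. Probe sets that can cross-hybridize also read NDUFA2, NDUFB3, NDUFB6 and ATP5MC1, among other members. SDHC and SDHD anchor the enzyme in the membrane. SDHC was -0.51 ± 0.20 in control and -0.41 ± 0.20 with CsA (adjusted p = 0.1 and 0.155 by limma; blocked, 0.00323 and 0.00825), and 1 of its 6 probe sets went the other way, reaching 0.67 and 0.42. SDHD was -0.08 ± 0.15 and -0.16 ± 0.15.

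In complex III, UQCR10, a small accessory subunit, fell by 0.50 ± 0.13 in control (limma adjusted p = 0.0242) and by 0.69 ± 0.13 in CsA arrays (0.00188). A second, dimmer probe set of UQCR10 was at 0.40 and 0.37, so the direction of this gene differs between its probe sets. The core protein UQCRC1 was -0.50 ± 0.23 in control and -0.28 ± 0.23 with CsA, with adjusted p-values of 0.16 and 0.414 by limma, and 0.0194 in control with the block. In control at 48 h its replicates read 10.63, 10.85 and 11.45, replicate 3 being far above the others. UQCRC2 was within 0.06 of 0 in both treatments. CYC1, the cytochrome c1 of this complex, is not covered by the stems and was -0.46 ± 0.20 and -0.39 ± 0.20, called with the block only (adjusted p = 0.00861 and 0.015).

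Complex IV divided between its small nuclear subunits. COX6B1, which faces the intermembrane space, fell by 0.44 ± 0.12 in control (limma adjusted p = 0.028) and by 0.52 ± 0.12 with CsA (0.00598). COX8A, a small membrane subunit, fell by 0.47 ± 0.13 (0.0246) and 0.36 ± 0.13 (0.049), and with 1 array left out the CsA call held in 4 of 18 fits. COX7B, another membrane subunit, fell by 0.60 ± 0.15 (0.0163) and 0.66 ± 0.15 (0.00501), but its second probe set was at 0.20 and 0.39. COX7A2 and COX6C fell in CsA arrays, by 0.35 and 0.34, and were -0.25 each in control arrays, where the block called COX7A2 (adjusted p = 0.0358 by limma). COXFA4, long known as NDUFA4, fell by 0.44 ± 0.12 (0.0309) and 0.50 ± 0.12 (0.00931). The early-assembling subunits COX4I1 and COX5A were near 0: COX4I1 was -0.05 ± 0.09 in control and -0.03 ± 0.09 with CsA, and COX5A was 0.03 ± 0.11 and -0.14 ± 0.11. COX5B, the zinc-binding subunit, was -0.13 ± 0.14 and 0.02 ± 0.14.

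COX7A2L was the exception in complex IV. The protein, also called SCAF1, joins complexes III and IV into supercomplexes and is not a regular subunit of the single enzyme. It read 10.86, 10.86 and 10.47 in control at 24 h and 11.38, 11.57 and 11.11 at 48 h. With CsA it went from 11.02, 10.98 and 10.57 to 11.62, 11.94 and 11.57. Every 48 h array was above every 24 h array of its treatment. The rise was 0.62 ± 0.18 (1.54-fold, limma adjusted p = 0.0342) in control and 0.86 ± 0.18 (1.82-fold, 0.00352) in CsA arrays. The control call was lost in 4 of the 18 fits without 1 array (adjusted p up to 0.143 by limma), the CsA call in 0. Among members above 0 in both treatments it was the only one called.

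Complex V held the member with the largest fall. ATP5MC1 is one of 3 genes, with ATP5MC2 and ATP5MC3, that encode the same mature c subunit, the ring-forming proton carrier of the synthase, behind different import sequences. ATP5MC1 read 9.50, 9.55 and 9.90 in control at 24 h and 8.58, 8.28 and 8.66 at 48 h. In CsA arrays it went from 9.16, 8.73 and 9.55 to 7.71, 7.97 and 8.22. The times did not overlap in either treatment, and the differences were -1.14 ± 0.19 (2.20-fold lower, limma adjusted p = 0.00231) and -1.18 ± 0.19 (2.27-fold lower, 0.000738).

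ATP5MC3 fell as well, from 13.16, 12.99 and 12.93 to 12.71, 12.35 and 12.16 in control and from 12.98, 12.74 and 12.84 to 12.33, 12.15 and 11.70 with CsA. Its differences were -0.62 ± 0.18 (limma adjusted p = 0.0309) and -0.79 ± 0.18 (0.00475), and all 3 of its probe sets were below 0. With probe sets averaged, its CsA difference was -0.64 and no longer called (adjusted p = 0.0611 by limma). ATP5MC2 read 12.36, 12.22 and 12.10 in control at 24 h and 12.25, 12.19 and 12.18 at 48 h. With CsA it read 12.25, 12.16 and 11.91 and then 12.37, 12.39 and 12.32. Its differences, -0.02 ± 0.16 and 0.26 ± 0.16, were not called (adjusted p = 0.951 and 0.267 by limma).

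The 3 c subunit genes were compared with each other after these values were seen. Over both treatments, the change from 24 to 48 h of ATP5MC1 minus that of ATP5MC2 was -1.28 on the log2 scale, and that of ATP5MC3 minus that of ATP5MC2 was -0.83. ATP5MC1 minus ATP5MC3 gave -0.45. Each of the 3 genes was read by a probe set that can cross-hybridize, so any signal shared between them cannot be told apart. No p-value is given for these differences, since the comparison was chosen after the values were seen.

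**Figure D3:**
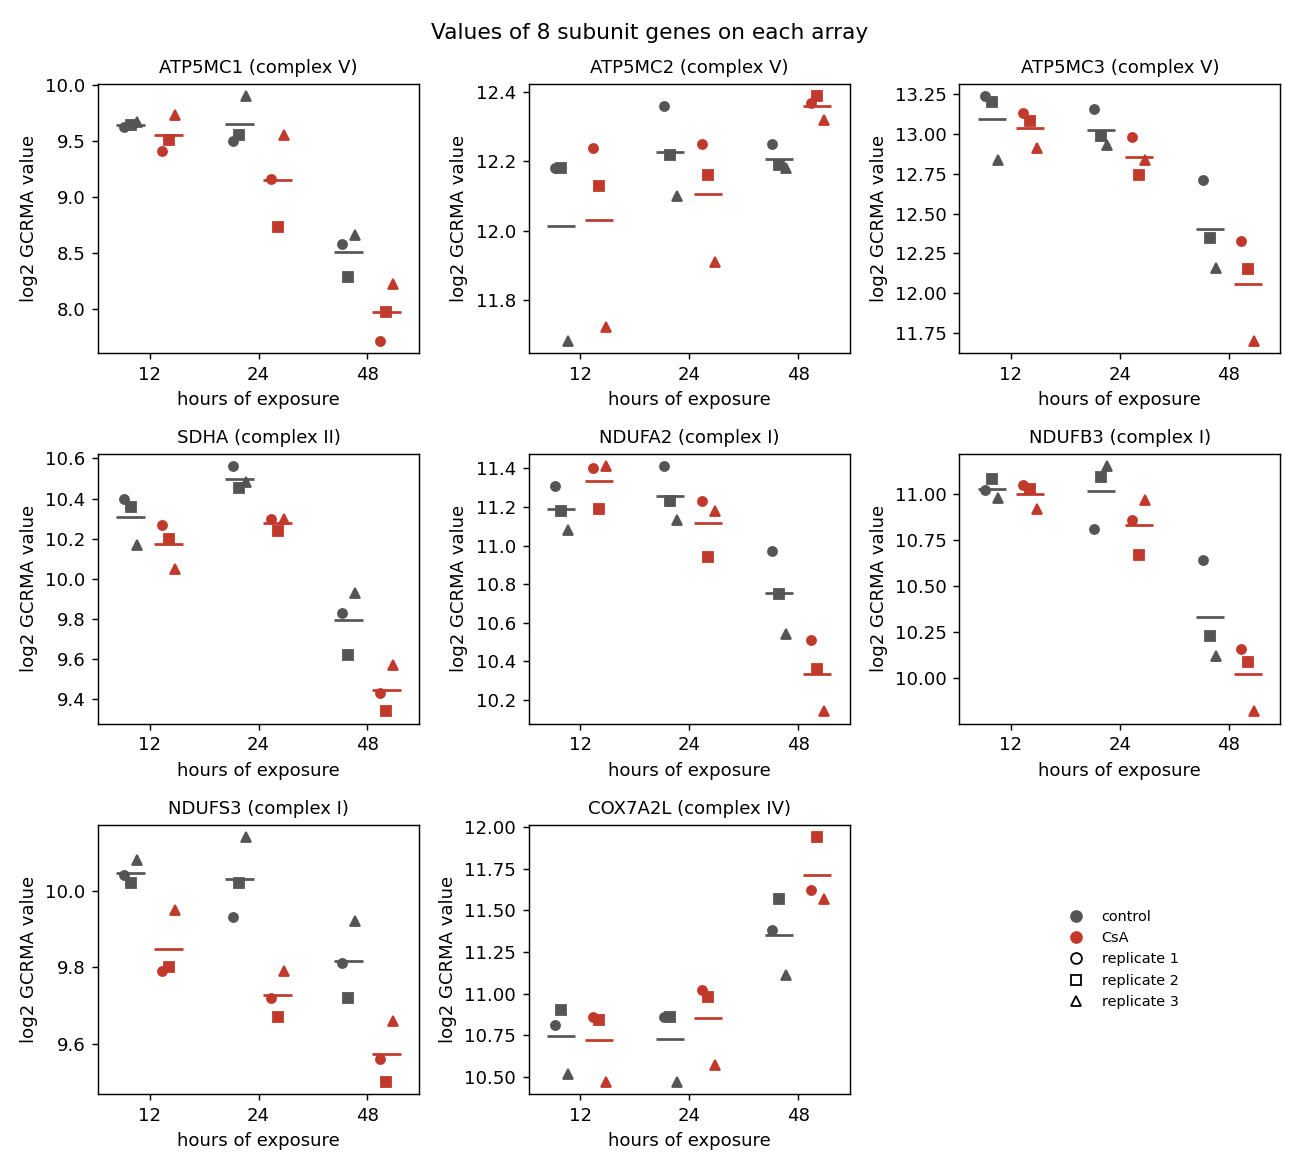
Log2 GCRMA values of 8 members on each array by hours of exposure, control in grey and CsA in red, shapes for replicates and bars for group means of 3 arrays; vertical scales differ between panels. ATP5MC1, ATP5MC3, SDHA, NDUFA2 and NDUFB3 are lower at 48 h, COX7A2L is higher, and ATP5MC2 is not lower.

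In the catalytic head of complex V, the alpha subunit ATP5F1A was -0.10 ± 0.14 in control and -0.11 ± 0.14 with CsA. The beta subunit ATP5F1B was -0.28 ± 0.09 (limma adjusted p = 0.0522, with the block 0.0147) and fell with CsA by 0.34 ± 0.09 (0.0131). ATP5F1D, the delta subunit of the central stalk, fell in control by 0.69 ± 0.16 (0.0126) and was -0.35 ± 0.16 with CsA (0.13; blocked, 0.0458). ATP5PO and ATP5PF, the peripheral stalk proteins OSCP and F6, fell in control by 0.32 and 0.43. With CsA they were -0.22 and -0.14, ATP5PO being called there with the block only (0.0481). ATP5ME, ATP5MG and ATP5MK are small membrane subunits: ATP5ME fell in control (-0.34), ATP5MG with CsA (-0.36; -0.29 in control, adjusted p = 0.0756 by limma and 0.0231 blocked) and ATP5MK in both (-0.28 and -0.30). With 1 array left out, ATP5MK was called in control in 5 of 18 fits. Whether the change from 24 to 48 h differed between CsA and control was tested as an interaction, and no member was called (lowest limma adjusted p = 0.899, and 0.332 with the block), with 0.0373% of all genes called.

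DNA just before the transcription starts was read for members that moved together, with RefSeq sequences of build GRCh38.p14. Of the 71 members 62 had an entry, on 75 starts, and the 250 bases before each start were searched on both strands. The pattern GCGCANGCG, the core of the site of the transcription factor NRF1, was found before 20 of the 62 members (32.3%) and before 7.98% of the table's 27305 genes. CCGGAAGT, an ETS family site, was found before 11 members (17.7%) and 4.13% of all genes. CCAAT, the box read by NF-Y, was found before 20 members (32.3%) and 37% of all genes. Among the 17 members with an entry that fell in control from 24 to 48 h, 7 held GCGCANGCG, 3 held CCGGAAGT and 7 held CCAAT. A match is a description of letters, and binding was not measured.

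Upstream stretches of 4 members are shown because they belong to members at the ends of the range of change over time or hold a pattern several times. Each is written 5′ to 3′ on the gene's strand. In the first pair, of SDHA at chr5:218070-218319 (plus strand) and NDUFB4 at chr3:120596086-120596335 (plus strand), capitals mark GCGCANGCG on either strand, with 4 matches for SDHA and 3 for NDUFB4, of which a pair overlap as one palindrome. In the other pair, of ATP5MC1 at chr17:48892537-48892786 (plus strand) and COX7A2L at chr2:42361218-42361467 (minus strand, 1 of 2 listed starts), capitals mark CCAAT, with 4 matches and 1 match.
SDHA: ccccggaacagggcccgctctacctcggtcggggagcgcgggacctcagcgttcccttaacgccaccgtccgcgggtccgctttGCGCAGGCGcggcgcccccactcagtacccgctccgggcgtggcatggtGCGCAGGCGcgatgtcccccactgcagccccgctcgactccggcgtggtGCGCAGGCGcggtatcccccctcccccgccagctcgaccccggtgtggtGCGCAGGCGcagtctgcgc
NDUFB4: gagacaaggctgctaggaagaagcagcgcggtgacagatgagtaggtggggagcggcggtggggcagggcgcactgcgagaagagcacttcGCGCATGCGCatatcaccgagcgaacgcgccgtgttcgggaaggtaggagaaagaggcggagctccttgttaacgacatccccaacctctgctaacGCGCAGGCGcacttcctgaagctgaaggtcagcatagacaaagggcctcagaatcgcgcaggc
ATP5MC1: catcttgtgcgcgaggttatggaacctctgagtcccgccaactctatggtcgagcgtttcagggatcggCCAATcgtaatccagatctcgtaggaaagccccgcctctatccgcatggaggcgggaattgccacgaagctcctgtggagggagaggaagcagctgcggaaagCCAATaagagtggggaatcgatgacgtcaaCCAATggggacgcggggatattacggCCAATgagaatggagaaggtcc
COX7A2L: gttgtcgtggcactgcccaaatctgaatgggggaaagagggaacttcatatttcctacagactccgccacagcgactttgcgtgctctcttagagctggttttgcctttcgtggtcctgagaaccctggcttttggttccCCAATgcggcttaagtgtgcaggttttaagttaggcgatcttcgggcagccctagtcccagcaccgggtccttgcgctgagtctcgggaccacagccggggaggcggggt

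The contrast of CsA with control was smaller than the change over time. At 12, 24 and 48 h, and in the average over times, no member was called (0 of 71), where 0%, 0%, 0.439% and 0.084% of all genes were. By limma, 1, 3, 10 and 6 members had an unadjusted p under 0.05, where 0.914%, 3.79%, 16% and 12.2% of all genes did. The median CsA minus control difference was 0.021 at 12 h, -0.12 at 24 h and -0.0585 at 48 h, and the members' standard errors ranged from 0.08 to 0.23. At 24 h 62 of 71 members were below 0, against 52% of all genes, and within replicate numbers the medians were -0.10, -0.15 and -0.067. At 48 h 44 of 71 were below 0, against 49.8%, with medians of -0.10, -0.0012 and -0.056 within replicate numbers. The 24 and 48 h controls also served in the change over time above, so these comparisons are not independent of it.

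**Figure D4:**
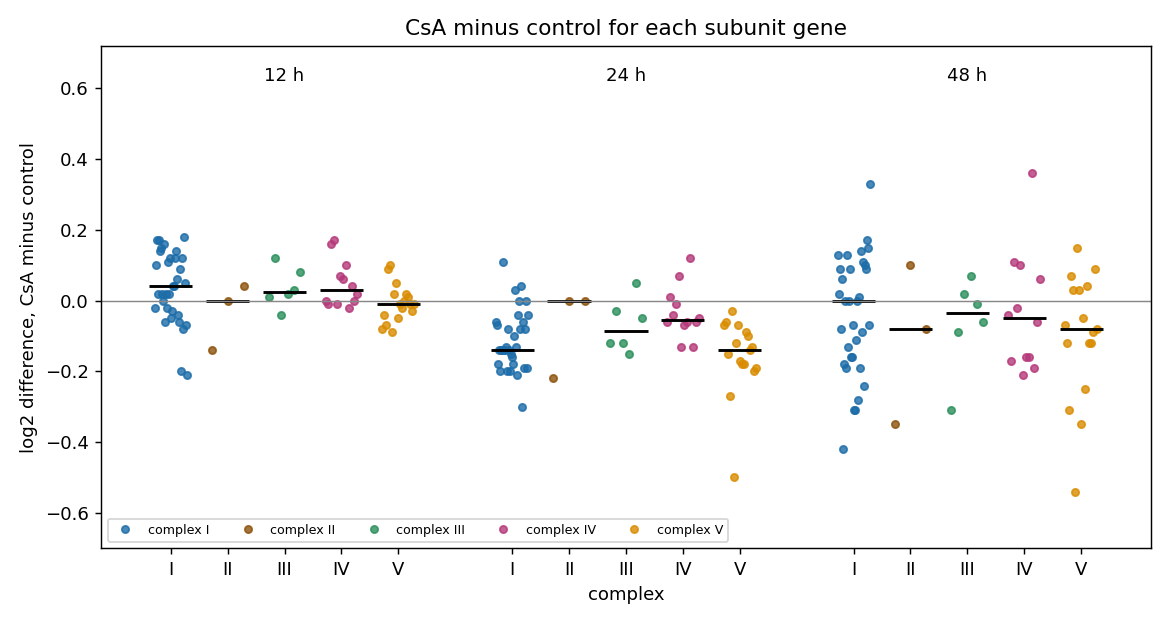
Log2 difference of CsA minus control for each member at 12, 24 and 48 h, by complex; points are genes (differences of means of 3 arrays) and black bars are medians. At 24 h all 17 complex V members are below 0, and at 48 h the members spread from -0.54 to 0.36.

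By complex, the medians at 12 h were 0.039, -0.0019, 0.026, 0.034 and -0.012 for complexes I to V. At 24 h they were -0.14, -0.0046, -0.083, -0.054 and -0.14, and at 48 h -0.0025, -0.081, -0.034, -0.0495 and -0.079. At 24 h complex V had 17 of 17 members below 0 and complex I 29 of 33, with the arrays of CsA wholly below those of control for 6 and 3 of them. Over all members these arrays did not overlap, CsA lower, for 11 at 24 h (5.12% of all genes) and 14 at 48 h (6.77%). The complex V array means at 24 h were 0.18, 0.16 and 0.16 in control and 0.05, -0.05 and 0.03 with CsA. No complex was compared with another by a test, and the effect of CsA by time had 0 members called by limma (0.0373% of all genes). Of the members, 2 had an unadjusted p under 0.05 for it. The share of all genes at that unadjusted threshold is not given, so this count has no background.

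Blocking by replicate number, 7 members were called at 48 h and 3 in the average, against 10.8% and 4.61% of all genes, so the members' 9.86% and 4.23% were near the background. The 7 were NDUFA2, NDUFB2, NDUFS3, SDHA, ATP5MC1 and ATP5F1C, all lower with CsA (5.96% of all genes), and COX7A2L, higher with CsA (4.8%). In the average NDUFS3, SDHA and ATP5MC1 were called, all lower. At 12 and 24 h the block called 0 members, with 0% and 0.00933% of all genes. The 48 h calls were few in number when any 1 array was left out of the blocked fit, from 0 (without replicate 2 of CsA at 48 h) to 4, and were 0 without replicate 3 and 0 when the 48 h arrays alone were fitted with the block.

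ATP5MC1 was the member with the largest CsA difference at 24 and 48 h, -0.50 ± 0.19 and -0.54 ± 0.19 (adjusted p = 0.999 and 0.19 by limma without the block; 0.27 and 0.0288 with it). At 48 h its CsA arrays, at 7.71, 7.97 and 8.22, lay below its control arrays, at 8.58, 8.28 and 8.66. At 24 h the arrays overlapped. SDHA was -0.14, -0.22 and -0.35 at 12, 24 and 48 h, each ± 0.11, and at 24 and 48 h its CsA arrays lay below all controls (at 48 h limma adjusted p = 0.134, with the block 0.0463).

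NDUFS3 was the one member whose CsA arrays lay below the controls at every time. How many of all genes did so at every time was not counted. At 12 h alone this held for 1 member and for 332 of all 10717 genes. NDUFS3 read 10.04, 10.02 and 10.08 in control at 12 h and 9.79, 9.80 and 9.95 with CsA. At 24 h it read 9.93, 10.02 and 10.14 in control and 9.72, 9.67 and 9.79 with CsA, and at 48 h 9.81, 9.72 and 9.92 in control and 9.56, 9.50 and 9.66. The average difference was -0.25 ± 0.05, with an adjusted p of 0.0721 by limma and 0.0127 with the block.

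NDUFA2 was 0.14 at 12 h, -0.14 at 24 h and -0.42 ± 0.14 at 48 h (limma adjusted p = 0.157, with the block 0.0269), when its CsA arrays lay below the controls. COX7A2L was -0.02, 0.12 and 0.36 ± 0.18 at the 3 times (at 48 h limma adjusted p = 0.357, with the block 0.028), its CsA arrays at 48 h lying above the controls. ATP5F1C, the gamma subunit of the rotor, was -0.31 ± 0.11 at 48 h (0.171, with the block 0.0463), but 1 of its 4 probe sets was at 0.22. NDUFB2, an accessory subunit of complex I, was -0.31 ± 0.15 at 48 h (0.333, with the block 0.0466), with overlapping arrays. NDUFV3 was the complex I member highest with CsA at 48 h, at 0.33, and was not called. Its second probe set was at -0.15. Other members of the catalytic and core parts were not called at 48 h: NDUFV1 was 0.15 ± 0.14, UQCRC1 0.07 ± 0.23, COX4I1 -0.04 ± 0.09, ATP5F1A -0.07 ± 0.14 and ATP5F1B -0.12 ± 0.09.

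Genes around the chain were counted from lists chosen with earlier results of these data known. Of 7 transcripts of mitochondrial DNA on the arrays, which encode the remaining subunits, none was called in any comparison without the block. With the block ND6 was lower at 48 than at 24 h in control (-0.44, adjusted p = 0.0225 by limma) and CsA arrays (-0.35, 0.0468), and COX3 was higher with CsA in the average (0.38, 0.0366). ND2, ND4, COX1, COX2 and ATP6 read between 13.96 and 15.81 over the arrays, ND6 between 9.42 and 10.52 and COX3 between 8.51 and 9.82. Their median change from 24 to 48 h was -0.18 in control and -0.094 in CsA arrays.

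Over all genes 7.32% rose and 7.16% fell in control from 24 to 48 h, and 12.9% and 12.3% in CsA arrays. With the block the shares were 16.6% and 16% in control, and 21.3% and 20.5% in CsA arrays. Several of the following counts are near the shares of their own fit. Of 47 assembly factors, 1 rose and 5 fell in control from 24 to 48 h, and 2 rose and 5 fell in CsA arrays. With the block 5 rose and 8 fell in control and 8 rose and 6 fell in CsA arrays. NDUFAF5, a complex I assembly factor, fell in control and CsA arrays (-0.80 and -0.95), as did PET100, a complex IV assembly factor (-0.89 and -1.22). SURF1 and COX15, both needed to build complex IV, rose in CsA arrays (0.79 and 0.57). Of 12 citric acid cycle enzymes, 2 fell in each treatment, OGDH (by 1.00 and 0.77) and DLST (by 0.71 and 0.55), both parts of the oxoglutarate dehydrogenase complex, and with the block 3 in control. Of 11 genes of cristae and inner membrane organisation 3 fell in each treatment, APOO, MICOS10 and PHB1. Blocked, 5 fell in each and 1 rose in control. Of 17 import genes 1 rose and 3 fell in control and 3 rose and 1 fell in CsA arrays; TIMM9, a small intermembrane-space chaperone, rose in both (1.05 and 1.41). Blocked import counts were 2 higher and 4 lower in control, and 5 and 4 in CsA arrays. Of 16 regulators of mitochondrial biogenesis 1 fell in each treatment, POLG in control (-0.46) and PPARGC1A in CsA arrays (-1.74), and with the block 3 in each, with 1 higher in CsA arrays. PPARGC1A encodes the coactivator PGC-1alpha, and was -1.12 with CsA against control at 48 h (limma adjusted p = 0.301, with the block 0.012). The block also called NDUFAF3, a complex I assembly factor (0.55, 0.0362), and TIMM22, an inner membrane translocase (0.58, 0.0355), higher with CsA at 48 h. In CsA against control no gene of any of these lists was called without the block.

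Markers of other cell types were read beside the change over time. Of 7 fibroblast markers 4 were at level. LUM fell from 24 to 48 h in CsA arrays (-2.52, limma adjusted p = 0.000656) and was -1.16 in control arrays (0.0703; blocked, 0.0251). All 4 were below 0 in both treatments, with medians of -0.47 and -0.75, while COL1A2, PDGFRA and PDGFRB lay below the level. The summed linear level of the 4 (2 to the power of each value) ranged from 2440 to 2668 in control at 24 h and from 919 to 4136 at 48 h, and from 2232 to 3041 and from 559 to 2459 in CsA arrays, so the times overlapped. DCN, one of the 4, went from 10.68, 10.35 and 10.72 at 24 h to 9.49, 9.08 and 11.76 at 48 h in control, and from 10.61, 10.16 and 10.94 to 9.47, 8.24 and 11.13 in CsA arrays, so that replicate 3 was higher at 48 h and replicates 1 and 2 lower. Of 6 epithelial markers 1, KRT18, rose in CsA arrays (0.79, limma adjusted p = 0.0414) and none was called in control. Below 0 were 2 of the 6 in control and 1 in CsA arrays, with medians of 0.28 and 0.55. With the block CDH1 and EPCAM rose in control (0.85 and 0.31), CDH1, EPCAM, KRT18 and KRT7 in CsA arrays (1.05, 0.37, 0.79 and 0.73), and CDH1 was higher with CsA at 48 h (0.86, adjusted p = 0.0126 by limma). CDH1 was far lower in replicate 3 than in replicates 1 and 2, at 3.05 against 7.66 and 7.81 in control at 24 h. The summed level of the 6 was 11093 to 21059 and 14793 to 22302 in control and 10958 to 22257 and 16622 to 26881 in CsA arrays at 24 and 48 h. SLC3A1 and PAX8 of the proximal tubule list summed to 1924 to 2468 and 1491 to 2054 in control, and to 1778 to 2577 and 1138 to 1471 in CsA arrays, where the times did not overlap. None of the list was called without the block. With it PAX8 fell in both (-0.41 and -0.59) and SLC3A1 in CsA arrays (-0.98). The block also called 1 of the 2 lower with CsA than in control at 48 h, where their median difference was -0.77. PODXL and SYNPO were dim, summing to 82 at most. The part of these markers in the members' change was not tested.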

How the data were processed

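RNA of HK-2 cells was measured on 18 arrays in 6 groups by treatment and time, as labelled. The deposited values, taken as log2 because of their range since no label names the log base, were made by the authors with GCRMA (no version given), per the submitters' processing notes. GCRMA corrects background, normalizes between arrays and summarizes probe sets, and compresses low values. The sources used here do not say which arrays it took together.

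Of 54675 probe sets, 41091 had 1 gene symbol, 1801 several and 11721 none here, and 62 were array controls. Symbols were checked by gene identifier against RefSeq (0 changed, 54 without a match). A gene was read by its brightest probe set on average, if a group mean reached 4, which left 10717 genes. Of the members tested, 25 had several probe sets at that level.

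Comparisons were contrasts of 6 group terms in a single limma fit (version 3.58.1, lmFit and eBayes, R 4.3.3) over all 18 arrays, with Benjamini-Hochberg adjustment over all genes at 0.05. Errors after ± are standard errors of a difference, or SDs over 3 arrays of a mean. The script was tested on simulated data. Tables and figures used Python 3.11.15, pandas 2.3.3 and matplotlib 3.10.9. The number of arrays limits the precision.

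Groups share replicate numbers. Deviations from the group means correlated between same-numbered arrays at 0.277 or more in all 45 pairs of arrays of different groups compared. For CsA against control at the same time the range was 0.546 to 0.942. The numbers were therefore used as pairs in an alternative fit, the replicate block, while the main fit left them out. The pairing rests on the correlations, as no label says what a number shares. A blocked value stands beside a named member or a list's count where it changes a call or the count.

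The members and lists were chosen with earlier results of these data known. Named were members called in a comparison (12 at most, by p), preset core subunits, and called genes of each list (4 at most). The 3 largest CsA differences per complex were also to be named, but not all of them are given. Others were named for their role or after their values were seen.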

Additional observations from a re-analysis of the deposited data

How the results depend on the processing

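In CsA against control, 0 members were called at each time without the replicate block in all 18 fits that left out 1 array. With the replicate block, which pairs the arrays by number, 7 were called at 48 h (0 to 4 with 1 array left out) and 3 in the average (1 to 5). Without a level filter 1 was called in the average. From 24 to 48 h in control arrays 20 were called, and 6 to 21 with 1 array left out, fewest without replicate 1 of control at 24 h or replicate 2 of control at 48 h. The block gave 32 (21 to 32), quantile normalization 13, and leaving out probe sets that can cross-hybridize 8. Members read at level only by such probe sets, SDHA, NDUFB3, NDUFB6 and ATP5MC1 among them, were absent from that fit. Its counts and medians in either treatment therefore cover fewer members, and a lower count is not only a loss of calls. In CsA arrays 18 were called, 12 to 19 with 1 array left out (fewest without replicate 3 at 24 h or replicate 2 at 48 h of CsA), 26 with the block (17 to 28), and 9 without cross-hybridizing probe sets. The block changed no other count of members called in CsA against control, its effect by time, or from 12 to 24 h; counts over other lists moved with it.

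Without those probe sets UQCR10 reversed to 0.40 in control and 0.37 in CsA arrays, and ATP5F1C reversed to 0.22 at 48 h; the cause was not tested. Averaging probe sets ended the calls of COX7B (-0.20 and -0.13) and UQCR10 (-0.05 and -0.16) over time in both treatments, of ATP5MC3 in CsA (-0.64) and of ATP5PO in control arrays (-0.23). Quantile normalization ended the control calls of COX6B1 (-0.37) and ATP5PO (-0.26), and leaving out replicate 3 those of NDUFB3 (-0.51), UQCR10 (-0.37) and ATP5PO (-0.33) in control and COX7A2 (-0.31) in CsA arrays.

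Medians of CsA minus control moved beyond the spread of the 3 replicate pairs as follows. At 12 h complex II was -0.0655 with averaged probe sets. At 24 h complex II was -0.0638 under the block without replicate 3, and without cross-hybridizing probe sets complex III was -0.0008 and complex V -0.0666. At 48 h complex I was -0.0338 after quantile normalization and -0.0358 with averaged probe sets. At 48 h complex IV was -0.0638 under the block without replicate 3, -0.0187 without a level filter, -0.0727 after quantile normalization, -0.0945 with averaged and -0.0227 without cross-hybridizing probe sets. With 1 array or replicate 3 left out, with or without the block, the ranges at 12 h were -0.1609 to 0.0908 for complex II, -0.0050 to 0.0936 for complex IV and -0.0588 to 0.0113 for complex V. At 24 h they were -0.1274 to 0.0427 for complex II, -0.1048 to -0.0270 for complex III and -0.1804 to -0.1111 for complex V, and at 48 h -0.1001 to 0.0108 for complex I and -0.0988 to -0.0116 for complex IV. Leaving out arrays under the block was added after seeing the data.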
